A study of Mus musculus with 12 samples.

Results

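The subject was the Hox cluster genes of the mouse, found as every gene name made of Hoxa, Hoxb, Hoxc or Hoxd followed by a number. There were 39 such names among the 35976 gene names of the files: 11 Hoxa, 10 Hoxb, 9 Hoxc and 9 Hoxd genes. On GRCm38 (GENCODE vM21) all are protein-coding: the Hoxa genes lie on the minus strand of chromosome 6, and on the plus strand the Hoxb genes span chr11:96194316-96368256, the Hoxc genes chr15:102921103-103036852 and the Hoxd genes chr2:74668310-74765142. Total RNA of sorted cells was sequenced by a stranded protocol in 12 libraries, 6 groups of 2 biological replicates. All groups came from A2lox.cre mouse embryonic stem cells that carried a doxycycline-inducible RUNX1-EVI1 construct, introduced with a p2lox targeting vector, so the uninduced controls carried it too. RUNX1-EVI1 joins the DNA-binding factor RUNX1 to the zinc finger protein EVI1 and is known from human leukaemia. FLK1+ cells were taken from embryoid bodies at 3.25 days and cultured for 1 day. PlusDox cells then received 0.5 µg/ml doxycycline for 18 hours and NoDox cells did not. Sorted populations were labelled hemogenic endothelial 1 (HE1), hemogenic endothelial 2 (HE2) and hematopoietic progenitor (HP). Colonies were picked and expanded; neither how many clones the libraries represent nor how the populations were gated is stated in the labels. The comparisons asked how induction of the fusion, and passage from endothelium to progenitor, were reflected in Hox RNA.

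Hox genes encode homeodomain transcription factors that give cells of the embryo their position along the body axis. They lie in 4 clusters, and genes of the same number in different clusters (a paralogue group) descend from one ancestral gene. Low numbers lie at the 3′ end of a cluster and are as a rule used earlier and further forward than high numbers at the 5′ end. In blood, Hoxb4 and the Hoxa genes of the middle and 5′ end are known for their part in stem cell self-renewal and leukaemia, mostly together with the cofactors Pbx and Meis.

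Levels are given in FPKM, a unit that corrects fragment numbers for the length of a transcript and for the depth of its library, so that genes can be compared with each other. Relative depth, read from the smallest steps of the values, ran from 0.58 to 1.597, and the absolute depth is unknown. In 5 libraries Lars2 was above 1000 FPKM (NoDox HE1 replicate 1, and replicate 2 of NoDox HP, PlusDox HE1, PlusDox HE2 and PlusDox HP), while the other 7 lay below that level. Mecom, the mouse gene of EVI1, had 0.194 and 0.205 FPKM in NoDox HP and 5.18 and 5.51 in PlusDox HP. In HE1 its NoDox libraries had 17.0 and 28.3 and its PlusDox libraries 23.0 and 18.1, so that it did not separate the groups there. In HE2 it had 6.08 and 13.9 against 18.4 and 20.2, with no overlap, and the difference did not pass (0.98 ± 0.318, limma adjusted p = 0.0923). Runx1, the gene of the other fusion partner, had 3.56 and 1.41 against 3.99 and 0.993 in HE1, 29.4 and 36.8 against 35.8 and 21.3 in HE2, and 67.4 and 56.0 against 62.0 and 15.2 in HP. Its groups overlapped in all 3 populations. Whether reads of the construct were counted in these genes is not stated in the labels. The summed level of 11 endothelial markers was 1541 to 2109 FPKM in NoDox HE1, 877 to 1283 in NoDox HE2 and 147 to 175 in NoDox HP. For 10 haematopoietic markers the sums were 45.6 to 78.4, 258 to 375 and 489 to 526 in the same order. The sums over 11 mesenchymal markers, none of them at 0 throughout, lay between 15.2 and 28.8 in all libraries, and those of 5 pluripotency markers did not exceed 1.72.

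The promoters of the 4 Hoxd genes that were higher with doxycycline, and of Hoxb8, which was lower, are printed because the construct holds the DNA-binding domain of RUNX1. Each runs from 250 bases before to 50 bases after the start of the gene, from RefSeq on GRCm38.p6, and capitals mark a match to one of the motifs listed after them.
Hoxd1, chr2:74762730-74763029, plus strand: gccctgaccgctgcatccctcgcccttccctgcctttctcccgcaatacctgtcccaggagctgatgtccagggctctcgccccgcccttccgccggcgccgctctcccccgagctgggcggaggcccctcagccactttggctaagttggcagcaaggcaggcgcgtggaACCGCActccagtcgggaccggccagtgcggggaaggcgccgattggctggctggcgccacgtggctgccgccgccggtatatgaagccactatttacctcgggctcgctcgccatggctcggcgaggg
Hoxd4, chr2:74721728-74722027, plus strand: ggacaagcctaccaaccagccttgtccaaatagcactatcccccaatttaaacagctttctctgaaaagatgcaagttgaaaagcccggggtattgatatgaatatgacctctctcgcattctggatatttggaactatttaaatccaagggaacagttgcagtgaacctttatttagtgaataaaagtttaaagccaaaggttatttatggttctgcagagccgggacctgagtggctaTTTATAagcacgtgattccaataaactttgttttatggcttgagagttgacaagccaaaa
Hoxd8, chr2:74704365-74704664, plus strand: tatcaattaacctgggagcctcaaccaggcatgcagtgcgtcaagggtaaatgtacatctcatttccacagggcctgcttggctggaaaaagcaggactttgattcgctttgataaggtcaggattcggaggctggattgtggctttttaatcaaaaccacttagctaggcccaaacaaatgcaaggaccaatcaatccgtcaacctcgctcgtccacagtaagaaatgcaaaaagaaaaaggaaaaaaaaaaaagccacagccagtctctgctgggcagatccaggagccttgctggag
Hoxd9, chr2:74697513-74697812, plus strand: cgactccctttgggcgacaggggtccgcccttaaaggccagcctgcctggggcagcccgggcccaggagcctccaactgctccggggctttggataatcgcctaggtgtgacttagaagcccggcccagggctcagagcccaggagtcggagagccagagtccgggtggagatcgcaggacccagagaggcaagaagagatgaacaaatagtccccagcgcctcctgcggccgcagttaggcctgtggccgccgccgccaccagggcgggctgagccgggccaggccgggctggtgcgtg
Hoxb8, chr11:96281655-96281954, plus strand: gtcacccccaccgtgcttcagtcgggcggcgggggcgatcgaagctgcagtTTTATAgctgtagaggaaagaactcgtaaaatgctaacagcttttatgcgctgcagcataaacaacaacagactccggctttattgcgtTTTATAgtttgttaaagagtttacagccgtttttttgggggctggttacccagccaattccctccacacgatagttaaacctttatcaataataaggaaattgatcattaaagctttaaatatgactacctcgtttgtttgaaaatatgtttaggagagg
The search covered both strands for the RUNX core in the forms TGTGGT and TGCGGT, for the EVI1 cores AAGATAA and GAAGATGA, and for the TATA box TATAAA. Promoter sequence was at hand for 22 of the 39 Hox genes. Hoxd1 held the RUNX core TGCGGT, which reads ACCGCA on the printed strand. Hoxd3 held the same core, and Hoxd10 held TGTGGT. The printed Hoxd4 window follows a RefSeq start. In GENCODE vM21 Hoxd4 begins at chr2:74711929, which lies inside the Hoxd3 window, chr2:74711743-74712042. Among all 32851 promoters of this length, 6.45% held TGCGGT and 16.8% held TGTGGT. Hoxd4 held TATAAA at 1 place and Hoxb8 at 2, which read TTTATA as printed, against 13.6% of all promoters with at least 1 match. Hoxa10 held it at 1 place, in one of its windows, and Hoxd13 at 2 overlapping places. None of these letters occurred in the Hoxd8 and Hoxd9 windows, and neither EVI1 core, held by 3.47% and 1.45% of all promoters, occurred in any of the 22. The count of CpG pairs was 29 in Hoxd1, 20 in Hoxd9, 13 in Hoxb8, 6 in Hoxd8 and 4 in Hoxd4, with a median of 7 over all promoters.

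Hox clusters also hold microRNAs, printed here for their shared seeds (bases 2 to 8, in capitals) because the gene of one of them was lower with doxycycline.
mmu-miR-10a-5p: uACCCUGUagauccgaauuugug
mmu-miR-10b-5p: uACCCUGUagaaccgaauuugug
mmu-miR-196a-5p: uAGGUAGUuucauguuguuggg
mmu-miR-196b-5p: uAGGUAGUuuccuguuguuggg
The miR-10 pair, which lies in the Hoxb and Hoxd clusters, shares the seed ACCCUGU, and the miR-196 family shares AGGUAGU. miR-196 is known to target Hoxb8 RNA.

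Hoxb and Hoxd genes made up nearly all Hox RNA in these cells. Of the 39 genes, 15 reached 1 FPKM in at least 2 libraries and were tested. Among them were Hoxb2 to Hoxb9 and the Hoxd genes 1, 3, 4, 8, 9 and 10, which are the 14 tested genes described here. The other 24 did not exceed 1.15 FPKM, a value of Hoxa13. Hoxa6, Hoxb13, Hoxc9, Hoxc10, Hoxc11 and Hoxc12 were listed at 0 in every library, and no Hoxc gene exceeded 0.0679 FPKM. The Hoxb genes summed to 61.6 and 41.8 FPKM in NoDox HE1 (replicate 1, then 2), and the Hoxd genes to 14.9 and 18.5. In HP the balance was the other way round, with Hoxb sums of 1.41 and 0.923 and Hoxd sums of 5.63 and 3.72 without doxycycline. The Hoxa sum was at most 3.82 FPKM, in PlusDox HE1.

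**Figure D1:**
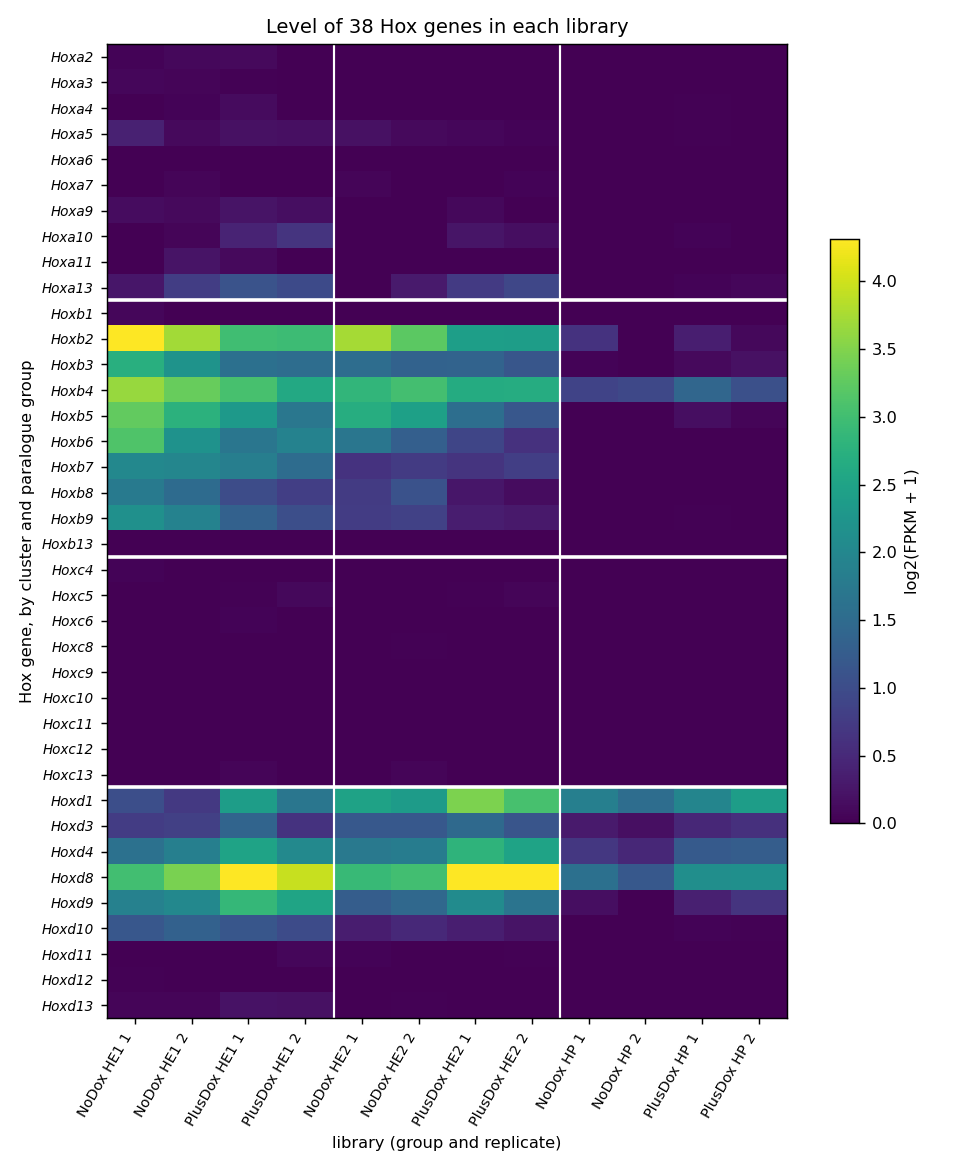
Colour gives log2(FPKM + 1) of 38 Hox genes (rows, by cluster and paralogue group) in each of the 12 libraries (columns, by group and replicate). The brighter cells include Hoxb2 to Hoxb9 in NoDox HE1, Hoxb2 and Hoxb4 in HE2, and Hoxd8 in HE1 and HE2. Hoxb7 to Hoxb9 are dim in HE2, at no more than 1.13 FPKM. The Hoxc block is dark throughout, with no value above 0.0679 FPKM.

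With doxycycline, Hoxb RNA was lower and Hoxd RNA higher in both endothelial populations. The Hoxb sum was 51.7 ± 14 FPKM (mean ± SD, n = 2 here and below) in NoDox HE1 and 25.1 ± 3.64 in PlusDox HE1, and 27.7 ± 3.0 and 14.4 ± 0.948 in HE2. The Hoxd sum went the opposite way, 16.7 ± 2.54 against 31.6 ± 7.55 in HE1 and 16.9 ± 0.495 against 37.2 ± 4.11 in HE2. Neither sum overlapped between groups in either population. The total over all 39 genes was 70.7 ± 11.4 against 60.2 ± 11.8 in HE1 and 45.1 ± 2.36 against 53.1 ± 5.05 in HE2. The ratio of the Hoxd to the Hoxb sum was 0.242 and 0.444 in the NoDox HE1 libraries and 1.34 and 1.17 in PlusDox HE1. In HE2 it was 0.553 and 0.672 without and 2.66 and 2.5 with doxycycline, so that every induced endothelial library had more Hoxd than Hoxb RNA and every uninduced one less. In such bulk samples, fewer cells of a type and less RNA per cell cannot be told apart.

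**Figure D2:**
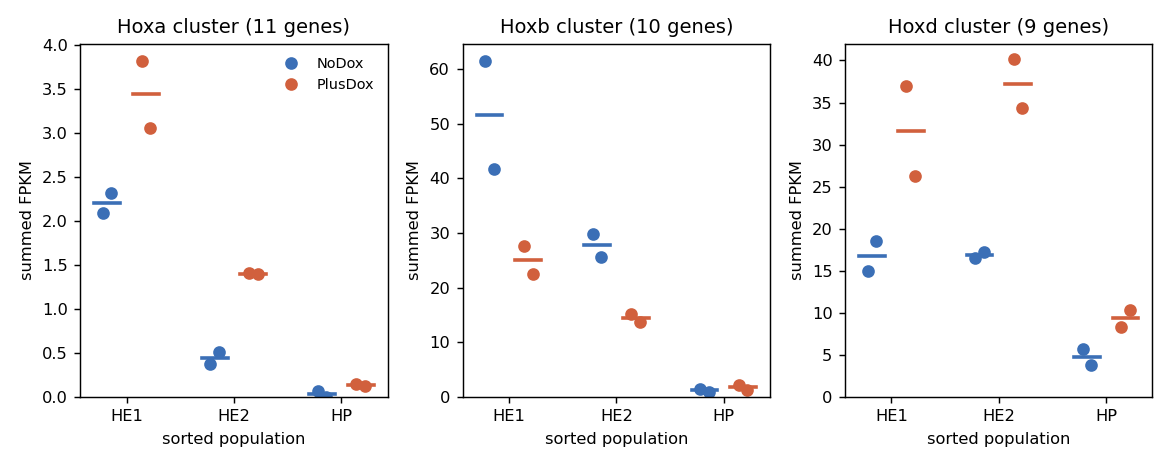
Points are summed FPKM of the Hoxa, Hoxb and Hoxd genes in each library, bars are means of 2 libraries, and each vertical axis starts at 0 with its own range. In HE1 and HE2 the PlusDox points lie below the NoDox points for Hoxb and above them for Hoxd.

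Single genes were tested with limma on log2(FPKM + 1), and a gene was called at a Benjamini-Hochberg adjusted p below 0.05 over 13316 genes. In HE1 1 of the 15 Hox genes was called, against 1.37% of all genes, and in HE2 4 were, against 6.06% (2 higher, against 3.82%, and 2 lower, against 2.24%). The mean of the 3 doxycycline effects, over HE1, HE2 and HP, called 8 of 15, against 10.6% of all genes. These 8 were 4 Hoxb genes that were lower and 4 Hoxd genes that were higher, against 3.72% of all genes lower and 6.91% higher. With the 5 libraries of high Lars2 left out none of the 15 was called in any doxycycline comparison, in a fit that had 1 residual degree of freedom and called at most 0.595% of all genes in those of HE1, HE2, HP and the mean. All 15 genes would have passed the filter on NoDox libraries alone and 13, all but Hoxb8 and Hoxd10, on PlusDox libraries alone. The falls of Hoxb8 and Hoxd10 with doxycycline, and the counts of lower genes that hold them, were therefore partly fixed by the filter.

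Hoxd8, a gene of the middle of its cluster, was the highest Hoxd gene in all 8 endothelial libraries. It had 7.07 and 9.86 FPKM in NoDox HE1, 18.7 and 14.5 in PlusDox HE1, 6.52 and 7.08 in NoDox HE2, and 18.9 and 18.8 in PlusDox HE2. In HP its levels were 2.01 and 1.28 without and 3.40 and 3.45 with doxycycline. Both induced libraries lay above both uninduced ones in all 3 populations. It rose in HE2 by 1.35 ± 0.216 (log2 difference ± SE, limma adjusted p = 0.00437) and in the mean effect by 1.00 ± 0.124 (adjusted p = 0.000487), while the HE1 difference of 0.90 ± 0.216 did not pass (adjusted p = 0.0734).

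Hoxd4, whose group 4 relatives include Hoxb4, had 2.06 and 2.65 FPKM in NoDox HE1, 4.69 and 3.10 in PlusDox HE1, 2.37 and 2.50 in NoDox HE2, and 6.0 and 4.68 in PlusDox HE2. Its HP values were 0.615 and 0.397 without and 1.32 and 1.41 with doxycycline, and the groups did not overlap in any population. It rose in HE2 by 0.88 ± 0.216 (limma adjusted p = 0.0355) and in the mean effect by 0.69 ± 0.125 (adjusted p = 0.0048). The HE2 call was lost without any one of the 4 HE2 libraries or either NoDox HE1 library (adjusted p 0.05 to 0.193). Hoxd4 overlaps Hoxd3 on the same strand and the antisense RNA Hoxd3os1, so the counting could split or share reads between them.

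Hoxd1, at the 3′ end of its cluster, had 1.06 and 0.649 FPKM in NoDox HE1 and 4.28 and 2.22 in PlusDox HE1. Its HE2 levels were 4.62 and 4.18 without and 9.99 and 7.36 with doxycycline, and its HP levels 2.65 and 1.92 against 2.91 and 4.31. No group overlapped its counterpart, and the mean effect rose by 0.82 ± 0.157 (limma adjusted p = 0.00647). The single differences of 1.16 ± 0.272 in HE1 (adjusted p = 0.0657) and 0.83 ± 0.272 in HE2 (adjusted p = 0.0951) did not pass, although the HE1 difference passed without PlusDox HE1 replicate 2 (adjusted p = 0.0452).

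Hoxd9, the Hoxd gene of a group with a known role in leukaemia through Hoxa9, had 2.74 and 3.03 FPKM in NoDox HE1 against 6.30 and 4.71 in PlusDox HE1. In HE2 it had 1.41 and 1.75 against 3.21 and 2.15, and in HP 0.113 and 0 against 0.296 and 0.563. Again no groups overlapped, and it rose in the mean effect by 0.56 ± 0.125 (limma adjusted p = 0.016), a call lost without NoDox HE1 replicate 1 (adjusted p = 0.0588). The flanking Hoxd genes differed in level. Hoxd10 was at 1.39 ± 0.182 FPKM in NoDox HE1 and 1.11 ± 0.171 in PlusDox HE1, Hoxd3 was at 0.733 ± 0.0535 against 1.09 ± 0.747, and neither was called in a doxycycline comparison. The Hoxd genes 11, 12 and 13 stayed below the filter, with Hoxd13 at 0.151 and 0.149 FPKM in PlusDox HE1 and 0.0374 and 0.0469 in NoDox HE1.

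Hoxb2, at the 3′ side of its cluster, was the Hoxb gene with the highest level in each NoDox endothelial library. It had 18.9 and 12.2 FPKM in NoDox HE1, 6.95 and 6.79 in PlusDox HE1, 12.2 and 8.36 in NoDox HE2, and 4.32 and 4.28 in PlusDox HE2. In HP it had 0.552 and 0 against 0.284 and 0.0681. The endothelial groups did not overlap, whereas those of HP did. It fell by 1.07 ± 0.271 in HE2 (limma adjusted p = 0.0395) and by 0.73 ± 0.157 in the mean effect (adjusted p = 0.012), and the HE1 difference of −1.04 ± 0.271 did not pass (adjusted p = 0.104). The HE2 call was lost without NoDox HE2 replicate 1 (adjusted p = 0.294), PlusDox HE2 replicate 1 (0.0958) or PlusDox HE2 replicate 2 (0.189).

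Hoxb5 had 8.73 and 5.85 FPKM in NoDox HE1, 4.00 and 2.28 in PlusDox HE1, 5.41 and 4.49 in NoDox HE2, and 1.94 and 1.25 in PlusDox HE2. This gene, known as a marker of long-term blood stem cells in the mouse, was listed at 0 in both NoDox HP libraries and had 0.113 and 0.0441 in PlusDox HP. It fell by 1.21 ± 0.253 in HE2 (limma adjusted p = 0.0168) and by 0.70 ± 0.146 in the mean effect (adjusted p = 0.0104). The HE2 call was lost without NoDox HE2 replicate 1 (adjusted p = 0.136) or PlusDox HE2 replicate 2 (0.154). The HE1 difference was −1.01 ± 0.253 (adjusted p = 0.0864).

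Hoxb9, the most 5′ of the tested Hoxb genes, had 3.46 and 2.78 FPKM in NoDox HE1 and 1.53 and 1.05 in PlusDox HE1. Its HE2 levels were 0.698 and 0.785 against 0.274 and 0.223, and in HP it was listed at 0 apart from 0.0152 in PlusDox replicate 1. It was the gene called in HE1, where it fell by 0.85 ± 0.186 (limma adjusted p = 0.0493), against 0.406% of all genes called lower. That call was lost when any one of the 12 libraries was left out. The difference kept its sign, between −1.0 and −0.696, which only leaving out an HE1 library could have changed. In the mean effect it fell by 0.44 ± 0.107 (adjusted p = 0.0234), lost without any of 6 libraries (NoDox HE1 replicate 1, replicate 2 of PlusDox HE1, PlusDox HE2 and PlusDox HP, and either NoDox HP library; adjusted p 0.0515 to 0.0935).

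Hoxb8, whose forced expression is known to hold myeloid progenitors in self-renewal, had 2.45 and 1.86 FPKM in NoDox HE1 and 1.01 and 0.740 in PlusDox HE1. In HE2 it had 0.687 and 1.13 against 0.201 and 0.109, and it was listed at 0 in all 4 HP libraries. It fell in the mean effect by 0.49 ± 0.112 (limma adjusted p = 0.0176), and the call was lost without NoDox HE1 replicate 1 (adjusted p = 0.0749) or PlusDox HE2 replicate 2 (0.0529). Its HE2 difference was −0.72 ± 0.195 (limma adjusted p = 0.0515). Hoxb8 reached 1 FPKM in 3 NoDox libraries and in 1 PlusDox library, so its fall with doxycycline was partly fixed by the filter.

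Hoxb4 and Hoxb6 were among the higher Hoxb genes but were not called in a doxycycline comparison. Hoxb4, known for expanding blood stem cells when overexpressed, had 11.6 and 8.92 FPKM in NoDox HE1, 7.29 and 5.08 in PlusDox HE1, 6.13 and 7.13 in NoDox HE2, and 5.33 and 5.38 in PlusDox HE2. In HP it had 0.828 and 0.923 against 1.67 and 1.06, so the induced libraries were the lower ones in HE1 and HE2 and the higher ones in HP. Its mean effect was −0.20 ± 0.128 (limma adjusted p = 0.369), and 0.01 with the 5 libraries of high Lars2 left out. Hoxb6 had 7.78 and 3.58 FPKM in NoDox HE1, 2.23 and 2.75 in PlusDox HE1, 2.23 and 1.48 in NoDox HE2, and 0.874 and 0.528 in PlusDox HE2, and was listed at 0 in HP. Its mean effect of −0.54 ± 0.16 did not pass (adjusted p = 0.0539). It passed without NoDox HE1 replicate 2 (adjusted p = 0.00962) or NoDox HE2 replicate 2 (0.0467). Hoxb3 (4.62 ± 1.39 FPKM in NoDox HE1, 1.96 ± 0.0649 in PlusDox HE1) and Hoxb7 (3.0 ± 0.0686 and 2.24 ± 0.507) were not called either. The antisense RNAs Hoxb3os and Hoxb5os overlap Hoxb2 with Hoxb3 and Hoxb5 with Hoxb6, and whether the counting used strand is not stated in the labels.

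Without regard to the test, all 8 tested Hoxb genes and Hoxd10 were lower in both PlusDox than in both NoDox libraries of HE1, against 22% of all genes. The Hoxd genes 1, 4, 8 and 9 were higher there, against 13.6% of all genes. In HE2, 6 Hoxb genes were lower in this way, against 28% of all genes, and the same 4 Hoxd genes were higher, against 22.3%. Lower in both populations were 6 Hoxb genes (2, 4, 5, 6, 8 and 9), against 9.65% of all genes. The 4 Hoxd genes were higher in all 3 populations, against 5.05%. The median log2 difference of the tested Hoxb genes was −0.86 in HE1 and −0.60 in HE2, that of the tested Hoxd genes 0.63 and 0.67, and that of all genes −0.07 and −0.05. Summed endothelial markers in HE2 were 877 to 1283 FPKM without and 1346 to 1399 with doxycycline, with 2 of 11 called higher. The haematopoietic sums there overlapped, at 258 to 375 and 273 to 415, with 4 of 10 called higher. Of all genes, 3.82% were called higher in HE2. In HE1 the endothelial sums overlapped, at 1541 to 2109 and 1625 to 1865. There 1 of 10 haematopoietic markers, Laptm5, was called higher, against 128 of all 13316 genes. Sums of 5 other lists did not overlap there, with no gene called. The smooth muscle sums were 110.8 to 195.5 FPKM without and 225 to 307.7 with doxycycline, the cardiac sums 32.9 to 39.6 and 22.8 to 28.8, and the erythroid sums 194.8 to 201.3 and 119.7 to 151.8. The posterior mesoderm sums were 1.14 to 1.27 and 1.52 to 3.13, and the pluripotency sums 0.600 to 0.753 and 0.927 to 1.72, so that neither overlapped in HE1. In HE2 the cardiac sums were 15.4 to 18.4 and 9.21 to 12.9, the mesenchymal sums 21.4 to 21.7 and 15.2 to 18.8, and the pluripotency sums 0.348 to 0.455 and 0.483 to 1.14, again without overlap. By limma T, a mesoderm factor whose own level was 0.112 and 1.02 FPKM on average, was called higher in HE2 and in the mean effect. Tnnt2 (cardiac), Pdgfrb (mesenchymal) and Alas2 (erythroid) were called lower in both. The part of these markers in the Hox differences was not tested.

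**Figure D3:**
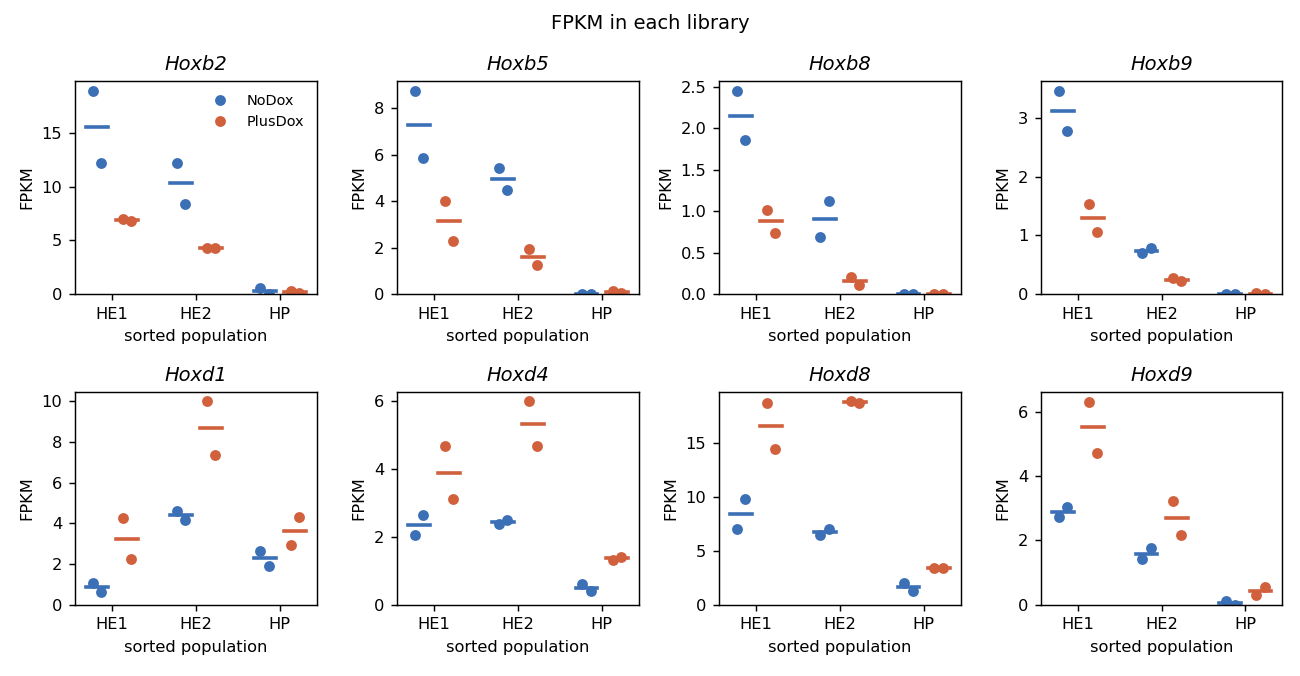
Each panel gives the FPKM of 1 gene in every library (points; replicate 1 left, replicate 2 right) with the mean of 2 as a bar, for the 8 Hox genes called in the mean doxycycline effect. Hoxb2, Hoxb5, Hoxb8 and Hoxb9 have their highest points in NoDox HE1, and Hoxd1, Hoxd4 and Hoxd8 in PlusDox HE2.

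In HP no Hox gene was called with doxycycline, against 0.834% of all genes (111 genes). At an unadjusted limma p below 0.05 there were 2 of 15, against 9.39% of all genes: Hoxd4 (0.66 ± 0.216, adjusted p = 0.261) and Hoxd8 (0.76 ± 0.216, adjusted p = 0.179). In 9 tested genes both PlusDox HP libraries lay above both NoDox libraries, against 20.5% of all genes: all 6 Hoxd genes, Hoxb3, Hoxb4 and Hoxb5. Among them Hoxb3, Hoxb5 and Hoxd10 did not exceed 0.1392 FPKM in HP and were listed at 0 in NoDox HP replicate 2. Their separation thus rests on values near the floor, and the count of 9 holds them. The Hoxd sum was 4.68 ± 1.34 FPKM without and 9.32 ± 1.36 with doxycycline, and the Hoxb sum 1.17 ± 0.345 against 1.74 ± 0.596. Depth differed within these groups, and 9 and 5 Hox genes were above 0 in the NoDox libraries against 18 and 12 in the PlusDox libraries. The endothelial markers summed to 147 to 175 FPKM in NoDox HP and 236 to 340 in PlusDox HP, with Cdh5 and Sox18 called higher. The haematopoietic sums were higher too, at 489 to 526 and 535 to 683, with Spn called higher, and the erythroid gene Alas2 was called lower. The part of these markers in the Hox values was not tested.

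Whether the doxycycline effect differed between populations was tested directly, and no Hox gene was called. The lowest adjusted p by limma was 0.655 between HE2 and HE1, 0.349 between HP and HE1 and 0.417 between HP and HE2, where 0.0451%, 0.0375% and 0.015% of all genes were called. At an unadjusted p below 0.05 were the Hoxb3 difference between HE2 and HE1, against 6.7% of all genes, 7 Hoxb differences (all tested ones but Hoxb7) between HP and HE1, against 6.53%, and those of Hoxb2, Hoxb5 and Hoxb8 between HP and HE2, against 6.57%. In each of these the effect was negative in the earlier population and higher in the later one. In HP it lay between −0.089 (Hoxb2) and 0.325 (Hoxb4), and most of these genes were at or near 0 FPKM there.

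**Figure D4:**
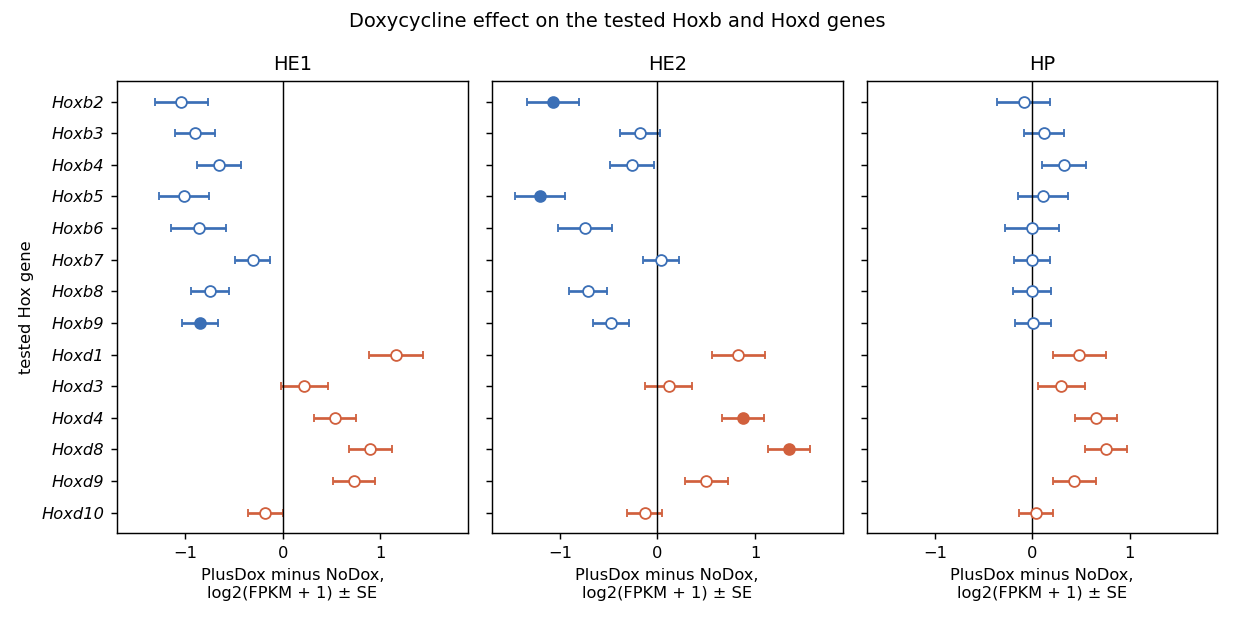
Points are PlusDox minus NoDox differences of log2(FPKM + 1) with standard errors for the 14 tested Hoxb and Hoxd genes in HE1, HE2 and HP, and filled points passed the test. Hoxb points lie left of 0 in HE1 and the points of Hoxd1, Hoxd4, Hoxd8 and Hoxd9 lie right of 0 in all 3 panels.

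Paralogues of the 2 clusters thus stood in a different proportion with doxycycline. Hoxd9 over Hoxb9 was 0.791 and 1.09 in NoDox HE1, 4.11 and 4.47 in PlusDox HE1, 2.02 and 2.23 in NoDox HE2, and 11.7 and 9.68 in PlusDox HE2. Yet the sum of all group 9 genes overlapped between the HE1 groups, at 6.31 and 5.89 FPKM without and 8.0 and 5.88 with doxycycline. Hoxd4 over Hoxb4 was 0.178 and 0.297 against 0.643 and 0.612 in HE1, and 0.386 and 0.350 against 1.13 and 0.871 in HE2. The group 4 sum likewise overlapped in HE1, at 13.7 and 11.6 against 12.1 and 8.18 FPKM. In HE2 the group 9 sums overlapped too, at 2.11 and 2.53 against 3.56 and 2.38, whereas those of group 4 were higher with doxycycline, at 8.5 and 9.63 against 11.3 and 10.1, with no overlap. Group 8 did not overlap in HE1, since Hoxd8 outweighed Hoxb8 in every endothelial library, and its sum was 9.51 and 11.7 FPKM in NoDox HE1 and 19.7 and 15.2 in PlusDox HE1. These ratios and sums describe the libraries and were not tested.

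Hoxa genes, the cluster most tied to leukaemia, were scarce. Hoxa9 did not exceed a group mean of 0.140 FPKM. Hoxa13, which patterns the end of the body axis, had 0.192 and 0.727 FPKM in NoDox HE1 and 1.15 and 0.950 in PlusDox HE1, and 0 and 0.236 against 0.665 and 0.884 in HE2. Hoxa10 had 0 and 0.0452 against 0.348 and 0.572 in HE1 and was listed at 0 in NoDox HE2 against 0.189 and 0.115 in PlusDox HE2. Both genes missed the filter. With no filter on low values, Hoxa10 rose in HE1 by 0.51 ± 0.067 (limma adjusted p = 0.0234) and in the mean effect by 0.25 ± 0.039 (adjusted p = 0.0145), while the mean effect of Hoxa13, 0.42 ± 0.099, did not pass (adjusted p = 0.0593). Hoxd13 rose there in HE1 by 0.14 ± 0.018 (adjusted p = 0.0196), at a level of 0.150 FPKM. Hoxa10 was at 0 in both libraries of NoDox HE2 and NoDox HP, and Hoxd13 in those of PlusDox HE2 and of HP. Such groups add no spread to the pooled standard errors, which therefore do not measure the spread within HE1 alone.

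From HE1 to HE2 the changes of the 6 tested Hoxd genes followed their order along the cluster without doxycycline, and nearly did so with it. Without doxycycline the mean level in HE2 was 515% of that in HE1 for Hoxd1, 174% for Hoxd3, 103% for Hoxd4, 80.3% for Hoxd8, 54.8% for Hoxd9 and 24.6% for Hoxd10. The 6 genes thus stood in the order of their numbers, and Spearman's rho between number and log2 difference was −1.0 over these 6 genes, which share their libraries, given as a description. It was −1.0 too with a pseudocount of 0.1, quantile normalization, median scaling, a term for Lars2 class or the 7 libraries of low Lars2 alone. Hoxd1 rose by 1.55 ± 0.272 (limma adjusted p = 0.00507; 0.0693 without NoDox HE1 replicate 2) and Hoxd10 fell by 0.83 ± 0.177 (adjusted p = 0.0133), and the 4 genes between them were not called. Hoxd10 had passed the filter only through HE1 libraries, where it is high, so its fall was partly fixed by the filter. The Hoxd10 call was lost without NoDox HE1 replicate 2 (0.143) or NoDox HE2 replicate 1 (0.116). With doxycycline Hoxd1 stood at 267%, Hoxd3 at 136%, Hoxd4 at 137%, Hoxd8 at 113%, Hoxd9 at 48.7% and Hoxd10 at 20.2%, with a rho of −0.886, which alternatives moved to between −0.886 and −1.0. The Hoxd sum hid this exchange: it was 16.7 ± 2.54 FPKM in NoDox HE1 and 16.9 ± 0.495 in NoDox HE2.

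All 8 tested Hoxb genes had lower means in HE2 than in HE1, with the lower percentages mostly toward the 5′ end. Without doxycycline HE2 kept 66.3% of the HE1 level for Hoxb2, 37.4% for Hoxb3, 64.6% for Hoxb4 and 67.9% for Hoxb5. It kept 32.7% for Hoxb6, 20.7% for Hoxb7, 42.1% for Hoxb8 and 23.8% for Hoxb9. Spearman's rho over these 8 genes was −0.595 without and −0.69 with doxycycline. By limma 7 Hox genes fell without doxycycline, against 4.45% of all genes, and 1 rose, against 5.67%. Those that fell included Hoxb3, Hoxb6, Hoxb7, Hoxb8, Hoxb9 and Hoxd10, with Hoxb7 (−1.31 ± 0.184, adjusted p = 0.00148) and Hoxb9 (−1.24 ± 0.186, adjusted p = 0.00211) at the lowest adjusted p. Of these, Hoxb7, Hoxb8, Hoxb9 and Hoxd10 would have passed the filter on HE1 libraries alone but not on HE2 libraries alone, so their falls and the counts that hold them, without and with doxycycline, were partly fixed by the filter. With doxycycline 7 fell as well, against 2.89% of all genes, and Hoxd1 rose, against 5.7%. They included Hoxb6, Hoxb7, Hoxb8, Hoxb9, Hoxd9 and Hoxd10. The count of 8 calls without doxycycline was 4 when NoDox HE1 replicate 1, NoDox HE1 replicate 2 or NoDox HE2 replicate 1 was left out. With doxycycline it was 0 without PlusDox HE2 replicate 1, 1 without PlusDox HE1 replicate 1, 2 without PlusDox HE2 replicate 2, 3 without PlusDox HE1 replicate 2 and 5 without either NoDox HP library. The median of all genes was 0.16 above 0 without and 0.17 with doxycycline, and quantile normalization lowered it by 0.131 and 0.152 (0.126 and 0.118 by median scaling), so differences of that size were set by the scaling.

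**Figure D5:**
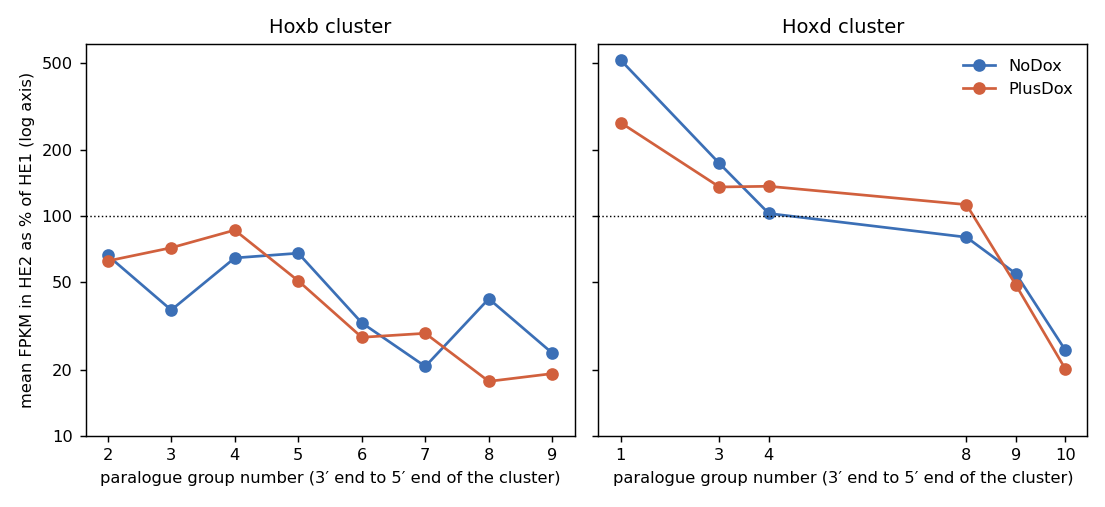
The mean FPKM in HE2 as a percentage of that in HE1 (log axis) is plotted against paralogue group number for the tested Hoxb and Hoxd genes, without and with doxycycline, and the dotted line marks 100%. Without doxycycline the Hoxd line descends from 515% at Hoxd1 to 24.6% at Hoxd10.

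Without doxycycline total Hox RNA was 7.67-fold lower in HP than in HE2, and most of what remained came from Hoxd1, Hoxd8, Hoxb4 and Hoxd4. The Hoxb sum was 23.8-fold lower and the Hoxd sum 3.61-fold lower. HP kept 51.9% of the HE2 level for Hoxd1, 24.2% for Hoxd8, 20.8% for Hoxd4 and 13.2% for Hoxb4, and 2.68% for Hoxb2. Hoxb5, Hoxb6, Hoxb7, Hoxb8, Hoxb9 and Hoxd10 were listed at 0 in both NoDox HP libraries. In this step 12 of 15 genes fell by limma, against 10.6% of all genes: all 8 Hoxb genes and the Hoxd genes 3, 4, 8 and 9, with Hoxb2 at −3.16 ± 0.271 (adjusted p = 1.52e-05) and Hoxd8 at −1.57 ± 0.216 (adjusted p = 0.000352). Hoxd1 was at −0.73 ± 0.272 (adjusted p = 0.0987). However, 11 of the 15 genes had passed the filter only through HE1 or HE2 libraries, and only Hoxb4, Hoxd1, Hoxd4 and Hoxd8 would have passed on HP libraries alone, so the count was partly fixed by the filter. With doxycycline 10 genes fell, against 10.9% of all genes, and HP kept 41.6% of Hoxd1, 25.6% of Hoxd4, 25.6% of Hoxb4 and 18.2% of Hoxd8.

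Over the whole path without doxycycline Hoxd1 was the only tested Hox gene that was higher in HP than in HE1. It rose by 0.83 ± 0.272 (limma adjusted p = 0.0296), against 22% of all genes called higher, and 13 others fell, against 18.6%. The count of genes that fell was again partly fixed by the filter, which 11 of the 15 had passed only through HE1 or HE2 libraries, so nothing is read from it against the share of all genes. The Hoxd1 call was lost without NoDox HE1 replicate 2 (adjusted p = 0.178) or NoDox HP replicate 1 (0.174). With doxycycline its difference was 0.14 ± 0.272 (adjusted p = 0.707) and 13 others fell, against 16.3% of all genes. All 11 endothelial markers were called lower from HE2 to HP as well, against 10.6% of all genes without and 10.9% with doxycycline. The part of endothelial RNA in the Hox levels was not tested.

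Hox proteins bind DNA with the cofactors Pbx and Meis, and 7 of 9 listed cofactor genes were tested. The mean doxycycline effect called Meis2 higher (0.54 ± 0.134, limma adjusted p = 0.026) and Meis3 lower (−0.75 ± 0.129, adjusted p = 0.00368). These were 1 of 7 higher and 1 of 7 lower, against 6.91% and 3.72% of all genes. Meis2 had 3.04 and 2.31 FPKM in NoDox HE1 against 6.96 and 3.95 in PlusDox HE1, and Meis3 had 2.64 and 3.23 against 1.33 and 1.31. Neither pair of groups overlapped. From HE1 to HE2 without doxycycline Meis1, the cofactor best known in blood stem cells, rose by 1.16 ± 0.196 (adjusted p = 0.00425) from 5.95 to 14.4 FPKM on average, while Meis2 fell by 1.26 ± 0.231 (adjusted p = 0.00659).

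Polycomb proteins keep Hox clusters silent, and all 13 listed genes were tested. Ezh2, the main histone methyltransferase of the complex, fell with doxycycline in HE2 from 29.3 and 32.5 FPKM to 17.1 and 12.7 (−1.02 ± 0.271, limma adjusted p = 0.0475) and in the mean effect (−0.55 ± 0.156, adjusted p = 0.0451). Cbx7, a reader subunit, rose in the mean effect by 0.52 ± 0.142 (adjusted p = 0.0365), and the other 11 were not called in a doxycycline comparison. Of the 13, 1 was called lower in HE2, against 2.24% of all genes. In the mean effect 1 was higher and 1 lower, against 6.91% and 3.72%. With so few members these counts are not read as a result about the list. None of the 7 MLL and trithorax genes, which keep Hox genes active, was called by limma in HE1, HE2, HP or the mean effect, and at an unadjusted p below 0.05 there were 0, 1, 0 and 2 of them, against 9.59%, 22.3%, 9.39% and 25.2% of all genes. Retinoic acid switches on 3′ Hox genes, and 5 of 9 genes of its pathway were tested. Cyp26a1, an enzyme that degrades retinoic acid, fell with doxycycline in HE1 from 15.8 and 18.2 FPKM to 8.41 and 5.59 (−1.19 ± 0.26, adjusted p = 0.0491) and in the mean effect (−0.54 ± 0.15, adjusted p = 0.0413). The other 4 tested genes of this pathway were not called in these comparisons. Of all genes, 0.406% were called lower in HE1 and 3.72% in the mean effect. The calls of Ezh2 and Cyp26a1 lie close to the threshold, and no alternative settings are given for them. Of the caudal regulators of Hox genes, Cdx1 and Cdx4 were listed at 0 in every library, and the 3 together did not exceed 0.316 FPKM.

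Among 22 non-coding genes and neighbours of the clusters, 8 were tested. Mir196a-1, which lies between Hoxb9 and Hoxb13 and encodes the miR-196a printed above, had 2.69 and 2.41 FPKM in NoDox HE1 and 0.676 and 1.27 in PlusDox HE1. In HE2 it had 0.642 and 0.590 against 0.168 and 0.0883, and the groups overlapped in neither population. It fell in the mean effect by 0.48 ± 0.111 (limma adjusted p = 0.0183) and from HE1 to HE2 without doxycycline by 1.14 ± 0.193 (adjusted p = 0.00426), as its neighbour Hoxb9 did. Among endothelial libraries it reached 1 FPKM only in NoDox HE1 and PlusDox HE1 replicate 2, so both falls were partly fixed by the filter. Libraries of long RNA measure the transcript over such a gene and not the mature microRNA. Beside the Hoxa cluster Skap2, an adaptor gene, and Snx10, a sorting nexin, rose in the mean effect (0.38 ± 0.107, adjusted p = 0.0436, and 0.43 ± 0.108, adjusted p = 0.0259), with Skap2 at 30.1 FPKM in NoDox HE2 and 44.9 in PlusDox HE2 on average. In the mean effect 2 of the 8 were thus higher and 1 lower, against 6.91% and 3.72% of all genes. The antisense RNAs of the Hoxd cluster missed the filter: Haglr had 0.562 and 0.608 FPKM in NoDox HE2 and 1.5 and 0.797 in PlusDox HE2, and Hoxd3os1 0.774 and 0.516 against 0.630 and 0.688.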

How the data were processed

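Per the submitters' processing notes, the authors' tools included Trimmomatic (0.32), HISAT2 (version 2.1.0) and StringTie (version 1.3.3), and the genome build was mm10. The annotation and strand setting are not stated in the labels. The deposited values were read as FPKM made by the authors, since StringTie gives FPKM and the sums differ between libraries. Files hold no counts, so depth is known only relatively (45 of 66 library pairs agreed within 0.1 on the log2 scale), and no counting interval can be given.

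The 13316 genes that reached 1 FPKM in 2 or more of the 12 libraries were tested on log2(FPKM + 1), which understates changes of low genes. limma 3.58.1 in R 4.3.3 fitted 6 group means with an intensity trend (6 residual degrees of freedom, prior 5.83). P-values were two-sided and Benjamini-Hochberg adjusted over all genes per comparison. They rest on replicates pooled over all groups, which the labels call biological and describe no further. Groups with both libraries at 0 add no spread, as in HP for Hoxb6, Hoxb7 and Hoxb8 and in NoDox HP for Hoxb9. The standard errors of such genes do not measure the spread of HE1 or HE2 alone. In simulated data with the HE2 design, 47% of 2-fold and 92% of 4-fold changes were recovered. Only genes with a mean log2(FPKM + 1) above log2(6) were changed there. Most tested Hox genes lie lower, so these rates do not give the recovery for them.

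Genes given in full had a group mean of at least 5 FPKM or a doxycycline call; those named had at least 1 FPKM or any call, apart from items not reported here, which stay in the counts. Alternatives were the pseudocount, filter, normalization, replicate block, Lars2 class and leaving out libraries. Positions are from GENCODE vM21 on GRCm38, and all 39 names matched. Hox genes and lists were chosen with earlier results of these data known. Files were read with Python 3.11.15 and pandas 2.3.3, and plots drawn with matplotlib 3.10.9.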

Additional observations from a re-analysis of the deposited data

How the results depend on the processing

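Counts of called Hox genes depended on the settings. Their directions nearly always stayed the same, though some of the settings could not change them. In HE1 the 1 call with doxycycline became 0 with a pseudocount of 0.1, 3 with no filter on low values, 4 with quantile normalization, 3 with median scaling and 2 with a term for Lars2 class, while 1.37% of all genes called became 0.728%, 0.604%, 2.64%, 2.28% and 1.72%. In HE2 the 4 calls became 2 with a pseudocount of 0.1, 2 with no filter and 7 with quantile normalization, while 6.06% of all genes became 4.55%, 1.82% and 13.7%. With a pseudocount of 0.1 the 8 calls of the mean effect became 5 (10.6% of all genes became 9.48%), and the 8 calls from HE1 to HE2 without doxycycline became 4 (10.1% became 9.09%). With the 7 libraries of low Lars2 alone, which leave 1 residual degree of freedom, the calls were 0 for doxycycline in HE1, in HE2 and in the mean effect, 0 for HE2 against HE1 without and with doxycycline, 4 for HP against HE2 without and 1 with doxycycline. The cause of these changes was not tested, and Lars2 class was not separated from the smaller number of samples. Leaving out each library in turn gave 0 to 1 calls in HE1, 1 to 4 in HE2 and 5 to 9 in the mean effect. It gave 4 to 8 for HE2 against HE1 without and 0 to 8 with doxycycline, and 8 to 12 and 7 to 10 for HP against HE2. For HP against HE1 it gave 13 to 15 and 13 to 14. The lone library left in a group is then assumed to vary like the others. In HE2, 1 call was left without NoDox HE2 replicate 1 or PlusDox HE2 replicate 2 and 2 without PlusDox HE2 replicate 1, and the mean effect had 5 without NoDox HE1 replicate 1. HP had 0 calls with doxycycline under every setting run, as did the differences between effects.

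With the replicate number as a block (pairing), 6 Hox genes were called in HE1, 6 in HE2, 9 in the mean effect and 0 in HP, while calls over all genes rose as well, to 3.45%, 17.2%, 21% and 2.29%. The labels do not say that a number marks a shared culture, and deviations of same-numbered libraries correlated at −0.1 to 0.526 between groups. The correlation was above 0.1 in 12 of 15 pairs of groups and not in the other 3, among them NoDox HE1 with PlusDox HE1 (0.082), so the numbers were not taken to pair the samples.

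Of 102 single-gene results, 1938 alternatives were computed: 1719 kept direction and side of the threshold, 195 kept direction but no longer passed, 23 newly passed and 1 changed sign. That 1 was the mean doxycycline effect of Hoxb4, 0.007 with the libraries of low Lars2 alone. Many of the kept directions were fixed in advance, since some alternatives change only the test and not the difference. These are removing the filter, adding the replicate block and leaving out a library outside the groups compared. The mean effect of Hoxd8 ranged from 0.92 to 1.16 and passed in 18 of 19 alternatives. Levels near 0 in HP limit what this depth can show.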
